A study of Mus musculus with 33 samples.

Results

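Microglia of the corpus callosum (CC), the largest white matter tract between the hemispheres, were compared with microglia of the cerebral cortex (Cx) at postnatal day 10 (P10). The comparison used the 8 libraries of the series' 33 whose labels gave P10 and either region, 4 from the CC and 4 from the Cx. Each region had 2 libraries from female mice (numbers 1 and 2) and 2 from male mice (numbers 3 and 4). The mice were wildtype C57BL/6J and received no treatment according to the sources used here. Microglia were sorted by flow cytometry as CD45+ CD11b+ Gr1- cells, and 1 bulk RNA-seq library was made from each sample. The gate also takes macrophages of the brain's borders, and a bulk library gives the average of all cells sorted, so that a change per cell and a change in the share of cells of 1 kind cannot be told apart. The labels do not say whether the libraries came from separate animals, so p-values measure only the spread between these samples, which may be technical. CC and Cx libraries of P7 (3 each) and of P42 (4 each) were used to describe the same genes at other ages.

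Microglia are the resident macrophages of the brain, and they depend on CSF1R signalling and on TGF-beta to keep a characteristic set of genes in use. In the first postnatal weeks the white matter holds microglia of amoeboid shape, which gather in the developing callosum, take up debris and cells, and release factors such as IGF1 that act on myelinating oligodendrocytes. Macrophages that take up lipid-rich material can store cholesterol as esters in lipid droplets or pass it out through ABCA1 and ABCG1 onto APOE particles, while sterols inside the cell hold back the SREBP2 programme that drives the genes of cholesterol synthesis.

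The CC libraries held 31762604 to 34651972 reads counted on genes and the Cx libraries 37086435 to 44973514, and values are given as CPM, reads relative to the size of the library after scaling by edgeR's TMM factors. A gene was taken as at the detection limit in a group when each of its 4 libraries held 3 counts or fewer. Genes with a read numbered 16146 to 17608 in the CC and 17935 to 19359 in the Cx, and still 16107 to 17608 against 17717 to 18806 after all libraries were thinned to 31762604 reads. The labelled cell type was checked by its markers. All 18 genes of a list of homeostatic microglia were above the detection limit, and P2ry12 among them had 9493 to 11460 CPM in the CC and 14820 to 15750 in the Cx. Markers of other cell types were also present and are given below. The sex labels were checked by Xist, with 280 to 346 CPM in female and 0.173 to 22.9 in male libraries. Ddx3y of the Y chromosome had 0 to 0.0614 CPM in female and 37.6 to 58.7 in male libraries. Among males Xist was highest in Cx library 3 (22.9 CPM) and CC library 3 (5.54). Kdm5d, also of the Y chromosome, had 0 CPM in male CC library 3 and 1.14 in female CC library 2.

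CC libraries 3 and 4, both from male mice, stood apart from the other 6. On the log2 CPM of 10090 genes, those whose mean log2 CPM reached 1, CC library 3 lay at a mean distance of 134.3 from the other CC libraries and CC library 4 at 127.9, against 40.8 to 47.6 for the Cx libraries among themselves. CC libraries 1 and 2 lay 77.8 from each other and at a mean of 81.1 and 70.9 from the Cx libraries. Of 9156 genes whose Cx mean reached 5 CPM, 123 had 3 counts or fewer in CC library 3 and 92 in CC library 4, compared with 12 and 9 in CC libraries 1 and 2 and 0 to 3 in the Cx libraries, whose own mean chose the genes. Of 9090 genes whose CC mean reached 5 CPM, the counts were 56 and 38 in CC libraries 3 and 4, 9 and 5 in CC libraries 1 and 2 and 2 to 7 in the Cx libraries. The mean distance was 100.7 between regions, 119.5 within the CC and 44.1 within the Cx, so that each CC library lay nearer on average to the Cx libraries than to the other CC libraries. The distance between regions was 1.23 times the mean of the distances within them (exact permutation test, one-sided, p = 0.0286 over 35 splits, the smallest p they can give). Such a ratio also rises when 1 region is tight and the other is spread, so that the p does not by itself show a shift between regions. Leaving out any 1 Cx library gave a ratio of 1.06 to 1.07 with p = 0.229 (the same exact test), so that the result rests on all 4 Cx libraries. Sex and the position of libraries 3 and 4 cannot be told apart in the CC, and the main counts below are also given without these 2 libraries.

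**Figure D1:**
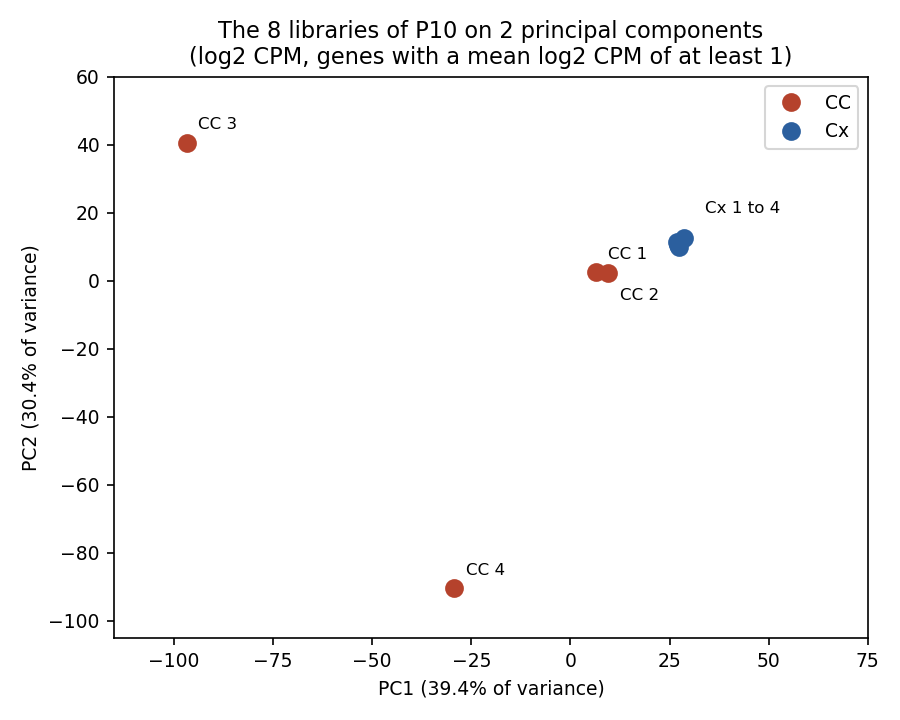
Principal components of the 8 libraries (PC1 39.4% and PC2 30.4% of the variance of log2 CPM, one point per library, CC red and Cx blue). The 4 Cx libraries fall together, CC 1 and CC 2 lie beside them, and CC 3 and CC 4 lie far from all others and from each other.

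Markers of other cells were summed in each library. The 15 markers of border macrophages, none of them at the detection limit in both regions, added to 364 to 468 CPM in the CC and 683 to 743 in the Cx, and Mrc1 made up 59.7% of the sum. Of the 15, 12 had a positive and 3 a negative log2 fold change (Mrc1, Stab1 and Cbr2), and the median was 0.31. Colec12 was the 1 member called by edgeR in the model of all libraries, higher in the CC. Mrc1 was called lower by limma-voom and in the fit of only the groups compared. Without CC libraries 3 and 4 the median was 1.02, with 10 members higher, 5 lower and 0 called (edgeR). The 12 oligodendrocyte markers added to 161 to 294 CPM in the CC and 146 to 160 in the Cx. Cnp made up 67.7% of that sum (log2 fold change 0.12, adjusted p = 0.64, edgeR). Among these 12 Mbp, which encodes myelin basic protein, rose in the CC (94.1, 54.6, 61.7 and 24.9 CPM in CC libraries 1 to 4 against 16.1, 12.7, 21.0 and 14.5 in the Cx, log2 fold change 1.87, standard error 0.34, adjusted p = 0.00074, edgeR), while Ermn and Opalin were at the detection limit in both regions. The 9 markers of oligodendrocyte precursors added to 3.29 to 18.7 CPM in the CC and 0.677 to 2.34 in the Cx, so that the sums did not overlap. The 16 neuronal markers added to 3.90 to 8.54 CPM in the CC and 7.46 to 12.6 in the Cx, the 10 astrocyte markers to 118 to 141 and 97.3 to 109. Slc1a3 made up 79.6% of the astrocyte sum (log2 fold change 0.22, adjusted p = 0.42, edgeR). Snap25 was the 1 neuronal marker called, lower in the CC (log2 fold change -4.51, adjusted p = 0.0096, edgeR). Its adjusted p was 0.13 without CC libraries 3 and 4 (edgeR). The sums for endothelial cells, mural cells and fibroblasts, ependyma and choroid plexus, red cells, neutrophils, monocytes and lymphocytes overlapped between the regions. Single genes held most of several sums, with Bsg at 88.2% of the endothelial, Ttr at 89.4% of the ependymal, Cxcr2 at 97.8% of the neutrophil and Cd79b at 99.7% of the lymphocyte sum. Of the markers of these cell types edgeR called 0, limma-voom 1 mural marker lower and 1 monocyte marker higher, and DESeq2 1 monocyte marker higher. limma-voom called 2 oligodendrocyte and 1 precursor marker higher, and DESeq2 2 and 2. Vcan, which is in both the monocyte and the precursor list, had 0.119 to 1.56 CPM in the CC and 0 to 0.0242 in the Cx. It was not called by edgeR (log2 fold change 6.28, adjusted p = 0.016). The 18 genes of the response to dissociation added to 738 to 809 CPM in the CC, above the 646 to 695 of the Cx. The part of these cells and of the dissociation in the results below was not tested.

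Genes were tested in 1 edgeR model of all 33 libraries, and p-values were adjusted over 20917 genes by the Benjamini-Hochberg method. Calls required an adjusted p no higher than 0.01 and a log2 fold change of at least 1 in size, with positive values for higher levels in the CC. Between CC and Cx, 121 genes (0.578% of those tested) were called, 60 higher (0.287%) and 61 lower (0.292%) in the CC. In 117 of the 121 the 4 CC and 4 Cx libraries did not overlap. The change was between 2-fold and 4-fold for 39 of the genes that rose and 37 that fell. Of the genes called, 49 that rose and 40 that fell had a mean of at least 10 CPM in the higher group, and the median log2 fold change of all genes tested was -0.04. An adjusted p of 0.01 or less at any size of change was reached by 173 higher (0.827%) and 235 lower (1.12%) genes, and below this is called the p limit. An unadjusted p under 0.05 was reached by 3802 (18.2%). All CC libraries were above all Cx libraries for 4.77% of genes tested and below them for 7.22%. With the same limits limma-voom called 257 genes (1.23%), 62 higher and 195 lower, and DESeq2 303 (1.45%), 125 higher and 178 lower, so that the even split of the edgeR calls depends on the tool. Leaving out 1 Cx library left 79, 88, 76 and 83 calls for Cx libraries 1 to 4, of which 32, 41, 35 and 38 were lower. Without CC libraries 3 and 4, 69 genes (0.33%) were called (38 higher, 31 lower), 54 of them among the 121. Of the 121, 113 had an absolute log2 fold change of at least 1 in that fit. Of the 46 called genes that the rule for named genes took, 19 were also called in all 18 alternative fits, namely Apoc1, Pde2a, Clec7a, Igf1, Ccl3, Atf3, Nceh1, Fam26f, Tmem205, Ccl6, Lpl, Anxa5, Mt1, Ccr1, Il7r, Mrc2, Alox5, Lrrc3 and Tlr4. The other 27 missed a limit in 1 to 13 of the fits, and none changed its direction.

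**Figure D2:**
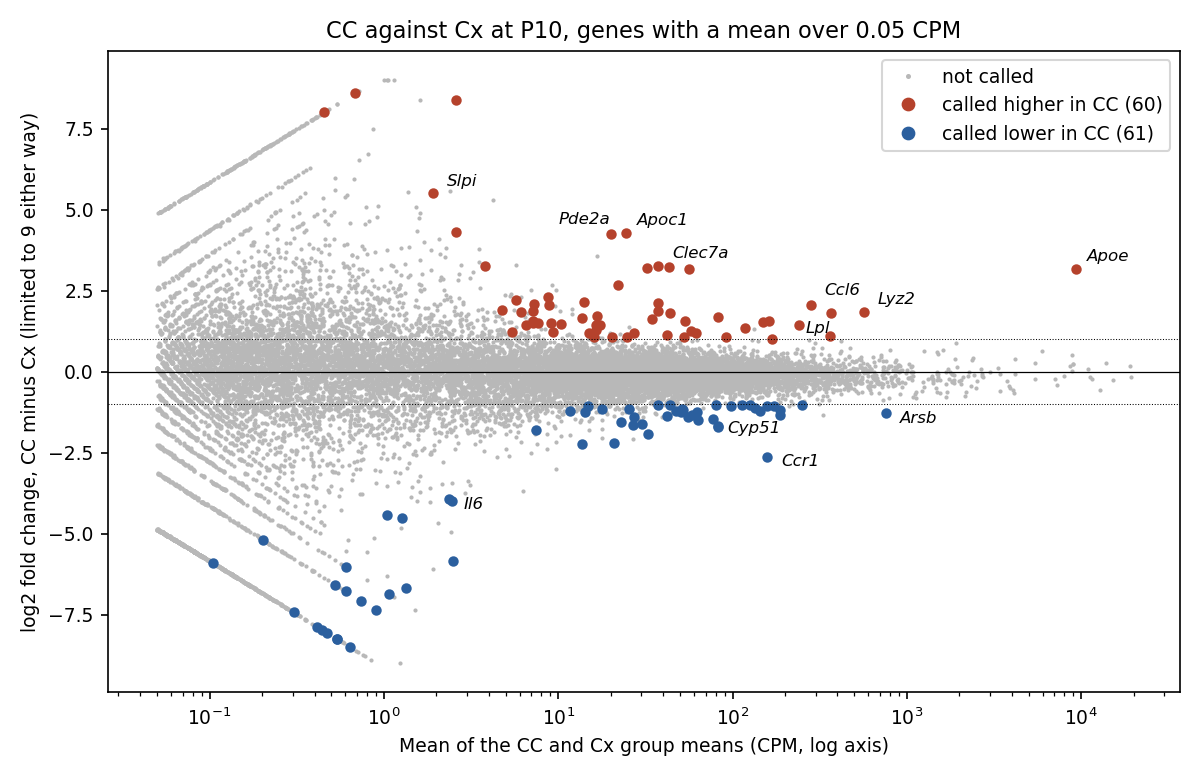
Log2 fold change between CC and Cx at P10 against the mean level of each gene (CPM, log axis), with genes called higher in red, genes called lower in blue and the dotted lines at a 2-fold change. Apoe is the called gene with the highest mean level, and the called genes with the largest changes in either direction lie at the low end of the axis.

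Apolipoproteins and genes of lipid efflux and storage were higher in the CC. Apoe (chromosome 7, 19696109 to 19699188), which encodes the lipid carrier apolipoprotein E, had 17630, 15090, 16080 and 18260 CPM in CC libraries 1 to 4 and 1934, 1832, 1910 and 1842 in Cx libraries 1 to 4. Every CC library was far above every Cx library, and the 2 groups were each tight (log2 fold change 3.16, standard error 0.22, adjusted p = 1.5e-10, edgeR, a fold of 8.92). Its neighbour Apoc1, for apolipoprotein C1, had the largest increase among genes of at least 10 CPM, from 2.72, 2.68, 1.43 and 2.83 CPM in the Cx to 55.5, 45.1, 34.2 and 51.4 in the CC (log2 fold change 4.27, standard error 0.46, adjusted p = 4.4e-07, edgeR). limma-voom on the same libraries gave Apoe a log2 fold change of 3.18 with an adjusted p of 0.28, whereas its adjusted p passed 0.01 in all other alternatives. Lpl, for lipoprotein lipase, had 487 to 678 CPM in the CC and 136 to 191 in the Cx (log2 fold change 1.80, standard error 0.18, adjusted p = 2.0e-07, edgeR).

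The cholesterol exporters rose together with these carriers. Abcg1 had 243, 254, 249 and 216 CPM in the CC and 84.7, 79.0, 84.3 and 77.8 in the Cx (log2 fold change 1.56, standard error 0.11, adjusted p = 2.2e-10, edgeR). Abca1 had 568, 637, 411 and 352 CPM in the CC and 303, 224, 182 and 205 in the Cx (log2 fold change 1.10, standard error 0.18, adjusted p = 0.00019, edgeR). CC libraries 3 and 4 were the lower ones for Abca1, and all 4 lay above the Cx. The call of Abca1 was lost in the fit of only the groups compared (adjusted p = 0.028, edgeR). Plin2, which coats lipid droplets, had 222 ± 49.0 CPM in the CC and 77.0 ± 1.73 in the Cx (SD, n = 4; log2 fold change 1.53, standard error 0.17, adjusted p = 4.4e-07, edgeR), and Fabp5, a fatty acid binding protein, had 9.84 to 23.6 and 2.15 to 3.73 CPM (log2 fold change 2.29, standard error 0.45, adjusted p = 0.0018, edgeR). Nceh1, a hydrolase of cholesterol esters, was also among the 12 named genes with the largest increase (57.4, 45.2, 89.0 and 50.6 CPM in the CC, 11.8, 17.7, 10.7 and 16.0 in the Cx, log2 fold change 2.11, standard error 0.28, adjusted p = 1.3e-05, edgeR). In the list of lipid efflux, storage and transport, 7 of 25 members tested rose and 0 fell, with a median log2 fold change of 0.97 against -0.04 for all genes. The median was 0.28 and 6 members were called without CC libraries 3 and 4, where Fabp5 missed the limit (2.05, adjusted p = 0.022, edgeR). Members of the list for fatty acid synthesis did not pass, with log2 fold changes of 0.32 for Fasn, 0.36 for Scd2 and -0.10 for Srebf1, nor did Soat1, which esterifies cholesterol (-0.02, adjusted p = 0.99, edgeR).

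Genes of cholesterol synthesis were lower in the CC. Cyp51 (chromosome 5, 4081145 to 4104746), for the sterol 14-demethylase, had 35.3, 47.3, 33.3 and 49.0 CPM in the CC and 114, 117, 115 and 107 in the Cx (log2 fold change -1.46, standard error 0.29, adjusted p = 0.0021, edgeR). Hmgcs1, for an early synthase of the pathway, had 28.5, 38.4, 37.1 and 22.3 and 85.1, 75.4, 61.3 and 60.8 CPM (log2 fold change -1.16, standard error 0.18, adjusted p = 0.00015, edgeR), and Insig1, whose protein holds SREBP in the endoplasmic reticulum, had 8.45, 7.09, 7.30 and 4.99 and 18.8, 14.6, 16.1 and 15.8 CPM (log2 fold change -1.23, standard error 0.25, adjusted p = 0.0030, edgeR). For each of these 3 genes the groups did not overlap. Of 23 members tested 4 fell and 0 rose, the median of the list was -0.84 against -0.04 for all genes, and 20 members had a negative value. Sqle (log2 fold change -2.07, adjusted p = 0.021, edgeR) and Srebf2 (-0.84, 0.0048) each missed one of the limits. The late steps Ebp (-0.10), Dhcr7 (-0.05) and Sc5d (-0.23) had smaller values and did not pass. Without CC libraries 3 and 4 the median was -0.71 and Hmgcs1 was the 1 member called, with adjusted p of 0.042 for Cyp51 and 0.083 for Insig1 (edgeR). Hmgcs1 lost its call in the fit of only the groups compared (adjusted p = 0.019, edgeR). Cyp51 shares exon bases with Akap9 of the opposite strand (61.5 ± 12.5 CPM in the CC, 71.1 ± 11.1 in the Cx, SD, n = 4), and the tagmented libraries do not mark strand. The counting discarded reads that overlapped several genes, and whether it used strand is not given in the sources used here, so that reads on the shared bases may be missing from both counts. In all, 16 named genes shared exon bases with another gene, among them P2ry12, Mef2a, Itga4, Pdgfa, Mt2, Tmem205 and Bnip3.

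The 250 bases before the starts that RefSeq gives for these 3 genes are shown because the genes fell together and SREBP2 and its partner NF-Y are known to act on such promoters. They are from RefSeq on GRCm38.p6, Hmgcs1 at chr13:119690101-119690350 on the plus strand, Insig1 at chr5:28071162-28071411 on the plus strand and Cyp51 at chr5:4104698-4104947 on the minus strand, each written 5′ to 3′ along the gene. The deposited gene models start elsewhere, so that by them the windows of Cyp51 and Insig1 reach into the gene, the CCAAT of Cyp51 included, and that of Hmgcs1 ends short of it. Capitals mark matches, on either strand, to the sterol element TCACNCCAC, to CCAAT, which NF-Y binds, and to the E-box CACGTG. None of the matches shown overlaps another.
Hmgcs1: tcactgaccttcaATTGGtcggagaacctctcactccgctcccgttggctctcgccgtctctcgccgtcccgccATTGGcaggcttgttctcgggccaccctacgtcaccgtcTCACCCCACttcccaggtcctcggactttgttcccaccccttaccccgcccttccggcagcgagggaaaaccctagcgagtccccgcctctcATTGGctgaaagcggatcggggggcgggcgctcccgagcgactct
Insig1: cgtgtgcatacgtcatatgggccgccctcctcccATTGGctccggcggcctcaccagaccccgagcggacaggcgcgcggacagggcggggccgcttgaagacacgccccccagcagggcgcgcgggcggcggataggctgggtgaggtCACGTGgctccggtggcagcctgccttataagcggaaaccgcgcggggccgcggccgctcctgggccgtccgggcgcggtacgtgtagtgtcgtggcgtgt
Cyp51: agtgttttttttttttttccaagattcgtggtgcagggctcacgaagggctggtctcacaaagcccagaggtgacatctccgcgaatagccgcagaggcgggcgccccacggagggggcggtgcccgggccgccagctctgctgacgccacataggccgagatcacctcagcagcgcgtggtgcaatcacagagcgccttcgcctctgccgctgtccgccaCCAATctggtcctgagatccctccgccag
Of the 23 genes of the list, 15 had such a window in the RefSeq table, and CCAAT was found in 14 of them (93.3%), against 34.5% of all 27025 windows of that length. The sterol element as spelled was found in 1 of the 15 (Hmgcs1) and in 1.04% of all windows, and the E-box in 3 of 15 and in 6.05% of all. These are matches of letters only. The list was written for the pathway and not from the regional difference, and the 14 include Ebp and Sc5d, which did not pass. Any part of these sites in the difference between CC and Cx was not tested.

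Genes of the microglia that occur in growing white matter were higher in the CC. Of 30 members of that list 13 rose and 0 fell, the median was 1.42 against -0.04 for all genes, and 23 had all CC libraries above all Cx libraries. The list shares Spp1, Gpnmb, Clec7a, Itgax, Lgals3, Igf1, Axl and Anxa5 with the priming genes that the study shows in these samples. It was also written with earlier results of these data known, so that its direction is not independent evidence. Clec7a, the receptor Dectin-1, had 63.7, 53.5, 101 and 52.7 CPM in the CC and 6.64, 7.12, 6.57 and 7.91 in the Cx (log2 fold change 3.26, standard error 0.27, adjusted p = 1.8e-09, edgeR). Igf1, for the insulin-like growth factor 1, had 66.2, 62.1, 96.4 and 86.9 CPM in the CC and 11.9, 5.98, 7.78 and 7.47 in the Cx (log2 fold change 3.23, standard error 0.46, adjusted p = 3.5e-05, edgeR). Lyz2, for a lysozyme, had 885 ± 54.7 and 246 ± 19.0 CPM (SD, n = 4; log2 fold change 1.85, standard error 0.13, adjusted p = 1.9e-10, edgeR), and Anxa5, for annexin A5, had 60.6 to 112 and 23.6 to 28.4 (log2 fold change 1.57, standard error 0.19, adjusted p = 2.5e-06, edgeR). Smaller differences past the p limit alone were those of Cd9 (0.62), Cd63 (0.72), Ctsb (0.51) and Trem2 (0.53). Tyrobp, the adaptor of TREM2, had a log2 fold change of 0.09 and Cd68, a lysosomal protein, of -9.09e-06. The median was 1.18 and 9 members were called without CC libraries 3 and 4.

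Expression of 12 genes that the study names as priming genes was compared in the same libraries. They are named there as already known and are shown in these samples, so that their direction is not independent evidence. Of the 12, 5 rose (Gpnmb, Lgals3, Clec7a, Igf1 and Anxa5) and 0 fell, with a median of 1.68. Gpnmb, a glycoprotein of lipid-laden macrophages, had 0.0296, 1.50, 11.3 and 6.96 CPM in the CC and 0.620, 0.318, 0.0716 and 0 in the Cx (log2 fold change 4.32, standard error 0.99, adjusted p = 0.0084, edgeR). CC library 1 was as low as the Cx for this gene, and without CC libraries 3 and 4 its value was 1.63 (adjusted p = 0.60, edgeR). Lgals3, for galectin-3, had 5.43, 2.76, 16.1 and 3.20 CPM in the CC and 0.162, 0.0227, 0.716 and 1.93 in the Cx (log2 fold change 3.27, standard error 0.71, adjusted p = 0.0054, edgeR; 2.54 and 0.073 without CC libraries 3 and 4). Spp1, for osteopontin, was uneven, with 64.7, 53.9, 500.5 and 141 CPM in the CC and 71.6, 79.3, 92.8 and 64.0 in the Cx (log2 fold change 1.31, standard error 0.61, adjusted p = 0.25, edgeR). CC library 3 held most of it, CC libraries 1 and 2 lay within or below the range of the Cx, and without CC libraries 3 and 4 the value was -0.36 (adjusted p = 0.89, edgeR). Itgax, the integrin CD11c, had 3.25 to 10.2 CPM in the CC and 1.07 to 2.70 in the Cx and did not pass (log2 fold change 1.81, standard error 0.43, adjusted p = 0.011, edgeR), while 6 of the 18 alternatives called it, 5 of them edgeR fits and the other DESeq2, with adjusted p of 0.00036 to 0.090 over all 18. Gas7 did not pass either (log2 fold change 1.79, standard error 0.46, adjusted p = 0.021, edgeR), which 3 of the 18 called (limma-voom, DESeq2 and the fit of only the groups compared, with 0.00021 to 0.086 over all 18). Axl, a receptor for apoptotic cells, had 44.1 to 77.9 and 28.9 to 43.4 CPM (log2 fold change 0.93, standard error 0.32, adjusted p = 0.10, edgeR). Mrc1, the mannose receptor CD206, was lower in every CC library (185, 229, 138 and 202 CPM) than in the Cx (481, 473, 447 and 494), but did not pass in the model of all libraries (log2 fold change -1.33, standard error 0.47, adjusted p = 0.12, edgeR); fits of only the groups compared (adjusted p = 0.0018, edgeR) and limma-voom (2.3e-06) called it. Cd36 (0 to 4.71 and 1.26 to 3.40 CPM) and F13a1 (0 to 5.43 and 0.136 to 3.60 CPM) overlapped between regions. Of the 12, 3 were called without CC libraries 3 and 4.

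Of the 5 phagocytosis genes that the study names from those regulated in its own samples, which is not independent evidence, Abca1 rose as described and the others did not pass. Gsn had 8.10, 4.42, 3.48 and 16.6 CPM in the CC and 5.58, 6.43, 5.09 and 6.19 in the Cx (log2 fold change 0.48, adjusted p = 0.59, edgeR), and CC library 4 was the highest. Grk6 had 25.3 to 63.8 and 42.2 to 56.4 CPM (-0.19, 0.77) and Scarb1 106 to 118 and 86.2 to 109 (0.20, 0.53). In the longer list of phagocytic and scavenger receptors 1 of 33 members rose (Clec7a) and 1 fell, with a median of -0.03. The gene that fell was Tlr4, the receptor for bacterial lipopolysaccharide, with 75.2, 76.7, 89.6 and 105 CPM in the CC and 208, 217, 206 and 172 in the Cx (log2 fold change -1.22, standard error 0.19, adjusted p = 0.00013, edgeR). Both calls held without CC libraries 3 and 4. Itgb5, an integrin of engulfment, had 2491 to 2658 and 2761 to 3072 CPM (-0.16, adjusted p = 0.24, edgeR).

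Genes of C-C motif chemokines were higher in callosal microglia, whereas a receptor for several of their products was lower. Ccl3 had 130.1, 68.8, 164 and 42.0 CPM in the CC and 9.95, 13.1, 9.62 and 12.1 in the Cx (log2 fold change 3.18, standard error 0.43, adjusted p = 1.8e-05, edgeR), and Ccl4 had 111, 34.4, 71.1 and 17.6 and 5.39, 6.53, 6.11 and 7.28 (log2 fold change 3.21, standard error 0.41, adjusted p = 8.6e-06, edgeR). CC libraries 2 and 4 were the lower ones for both genes, and still above every Cx library. The call of Ccl4 was lost with limma-voom (adjusted p = 0.027) and in the fit of only the groups compared (0.013, edgeR). Ccl6 had 492, 469.7, 401 and 449 CPM in the CC and 103, 112, 118 and 103 in the Cx (log2 fold change 2.06, standard error 0.10, adjusted p = 8.0e-14, edgeR), and Ccl9 had 267 to 412 and 115 to 147 (log2 fold change 1.43, standard error 0.13, adjusted p = 2.2e-08, edgeR). Il6, for interleukin 6, fell from 5.56, 3.68, 3.08 and 5.54 CPM in the Cx to 0.682, 0.0307, 0 and 0.433 in the CC, a low level in both (log2 fold change -3.94, standard error 0.90, adjusted p = 0.0085, edgeR; -3.62 and 0.086 without CC libraries 3 and 4). Of 29 chemokines and cytokines tested, 4 rose and 1 fell (median 0.16), and 4 and 0 did so without CC libraries 3 and 4. Ccl2 (0.90), Ccl12 (0.40) and Il1b (0.73) did not pass.

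Ccr1 (chromosome 9, 123962126 to 123968692), a receptor for CCL3 and other chemokines of the family, had the largest decrease among genes of at least 10 CPM, with 27.3, 48.2, 36.3 and 65.0 CPM in the CC and 291, 293, 179 and 326 in the Cx (log2 fold change -2.62, standard error 0.42, adjusted p = 0.00019, edgeR, 6.15-fold lower). Every CC library was far below every Cx library. Plaur, the urokinase receptor, rose (12.4, 19.4, 35.9 and 14.9 CPM in the CC, 6.10, 8.94, 6.49 and 4.69 in the Cx, log2 fold change 1.66, standard error 0.36, adjusted p = 0.0054, edgeR; 1.29 and 0.090 without CC libraries 3 and 4). S1pr1, a receptor for sphingosine 1-phosphate, had 176 to 256 CPM in the CC and 94.4 to 131 in the Cx (log2 fold change 1.01, standard error 0.15, adjusted p = 8.5e-05, edgeR). Itga4, the alpha 4 integrin, was below 1 CPM in every CC library (0.208, 0.0614, 0.0298 and 0.0577) and had 2.56, 0.750, 2.63 and 2.03 in the Cx (log2 fold change -4.43, standard error 1.00, adjusted p = 0.0078, edgeR; -3.84 and 0.14 without CC libraries 3 and 4). Of 25 chemokine and migration receptors 2 rose and 2 fell, with a median of 0.06, and without CC libraries 3 and 4 S1pr1 rose and Ccr1 fell. Cx3cr1, the fractalkine receptor, had 2516 to 2840 and 2494 to 2679 CPM (0.07, adjusted p = 0.57, edgeR).

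Most homeostatic genes had lower values in the CC, 16 of 18, by less than 2-fold. None was called by edgeR, limma-voom or DESeq2, and 9 were lower past the p limit (1.12% of all genes were). At an unadjusted p under 0.05, 1 was higher and 13 lower (edgeR), against 18.2% of all genes in either direction. P2ry12, the purinergic receptor that marks microglia, had 9944, 10650, 9493 and 11460 CPM in the CC and 14820, 15650, 15750 and 14870 in the Cx (log2 fold change -0.56, standard error 0.09, adjusted p = 0.00015, edgeR). Tmem119 (-0.68), Siglech (-0.63), Slc2a5 (-0.68) and Olfml3 (-0.58) had similar differences past the p limit. Cx3cr1, Sall1 (-0.05) and Cst3 (0.18) did not pass. The median was -0.37 with all libraries and -0.39 without CC libraries 3 and 4, and Sparc, which encodes a secreted matrix protein, had 10120 to 11410 and 11890 to 12660 CPM (-0.23, 0.070).

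Among 24 transcription factors of microglia 2 rose and 1 fell (median 0.15). Mef2a, a MEF2 factor, had 186, 188, 143 and 141 CPM in the CC and 320.1, 297, 378 and 355 in the Cx (log2 fold change -1.04, standard error 0.11, adjusted p = 4.1e-07, edgeR), and its value lay at the fold limit (-0.84, adjusted p = 0.00029, without CC libraries 3 and 4). The related Mef2c had 618 to 854 and 779.7 to 824 CPM and did not pass (-0.21, 0.12). Mitf, a factor of the lysosomal gene programme, had 12.9, 31.0, 29.9 and 22.6 CPM in the CC and 8.44, 10.7, 10.2 and 6.50 in the Cx (log2 fold change 1.43, standard error 0.32, adjusted p = 0.0067, edgeR; 1.31 and 0.073 without CC libraries 3 and 4). Egr1, an immediate early gene, had 18.1, 32.9, 30.8 and 20.2 and 4.32, 9.05, 8.12 and 9.48 CPM (log2 fold change 1.72, standard error 0.37, adjusted p = 0.0050, edgeR; 1.74 and 0.029 without them), and Atf3, a stress-induced factor, had 34.1, 30.3, 52.7 and 34.4 and 4.94, 7.12, 5.23 and 6.43 (log2 fold change 2.67, standard error 0.27, adjusted p = 1.5e-07, edgeR). Atf3 is not in the list of 24 and was named for the size of its increase. Egr1 and Atf3 are in the list of the response to dissociation, whose sum was higher in the CC as given above. In that list 11 of 18 members had a positive value, with a median of 0.27. At an unadjusted p under 0.05, 6 were higher and 0 lower (edgeR), against 18.2% of all genes in either direction. Without CC libraries 3 and 4, 16 of the 18 had a positive value and the median was 0.49. Egr2, named after its values were seen, had 9.34, 4.21, 18.7 and 9.09 CPM in the CC and 0.917, 0.546, 0.310 and 2.47 in the Cx, which did not overlap, and missed the p limit (log2 fold change 3.28, standard error 0.86, adjusted p = 0.023, edgeR). Of the other members of that list Fos had a log2 fold change of 1.33 (adjusted p = 0.044, edgeR), Jund of 0.95 (0.00012) and Jun of 0.20 (0.38), while Hspa1a and Hspa1b were below 0.5 CPM in every library.

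Lysosomal and complement genes past the p limit lay in both directions. Of all genes tested, 18.2% had an unadjusted p under 0.05 in either direction (edgeR). No lysosomal gene of 32 was called (edgeR; 9 higher and 10 lower at an unadjusted p under 0.05; limma-voom called 0 and DESeq2 0), and the median was 0.03. Ctsb (0.51), Cd63 (0.72), Lipa, which hydrolyses lysosomal cholesterol esters (0.55), Ctsa (0.42), Ctsl (0.40) and Npc2, a cholesterol carrier of the lysosome (0.37), were higher past the p limit. Ctss (-0.40), Lamp2 (-0.46), Ctsh (-0.40) and Hexa (-0.24) were lower past it. No complement gene of 15 was called (edgeR; 5 higher and 4 lower at an unadjusted p under 0.05; limma-voom called 2 and DESeq2 1). C1qb, a chain of the initiating C1q, had 8747 to 10400 CPM in the CC and 7992 to 8674 in the Cx (0.22, adjusted p = 0.14, edgeR), and the receptor subunits Itgam (-0.67) and Itgb2 (-0.50) were lower past the p limit.

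Metallothioneins and a few genes of heme and hypoxia rose in the CC. Mt1 had 165, 154, 195 and 157 CPM in the CC and 66.7, 72.7, 64.9 and 61.8 in the Cx (log2 fold change 1.33, standard error 0.17, adjusted p = 4.8e-06, edgeR), and Mt2 had 8.30, 7.98, 8.79 and 12.4 and 2.02, 1.93, 2.17 and 2.03 (log2 fold change 2.20, standard error 0.46, adjusted p = 0.0042, edgeR). Both encode small proteins that bind zinc and copper. Hmox1, the heme oxygenase, had 113, 82.6, 80.0 and 66.2 CPM in the CC and 28.3, 49.8, 32.6 and 39.0 in the Cx (log2 fold change 1.19, standard error 0.26, adjusted p = 0.0060, edgeR), and Bnip3, a mitochondrial target of hypoxia, had 20.4 to 25.1 and 9.12 to 12.1 (log2 fold change 1.08, standard error 0.22, adjusted p = 0.0032, edgeR). Of 28 genes of iron, heme and oxidative stress 3 rose and 0 fell (median 0.17), and the ferritin genes Fth1 (0.65, adjusted p = 2.3e-05, edgeR) and Ftl1 (0.95, 1.3e-05) were higher by less than 2-fold. Of 30 genes of glycolysis and hypoxia 2 rose and 0 fell (median 0.37), and the enzymes Aldoa (0.98, 4.4e-07), Tpi1 (0.94, 1.7e-05) and Pkm (0.52, 0.0049) were past the p limit. Without CC libraries 3 and 4, 1 of the first list (Mt1) and 0 of the second were called (edgeR; 9 of the second were higher at an unadjusted p under 0.05), and the median of the second was 0.17.

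Growth factors and matrix genes included 3 that rose by edgeR, Igf1, Lgals3 and Pdgfa, of 32 tested, and 0 that fell (median -0.07). limma-voom called 1 higher and 1 lower, and DESeq2 called 3 higher and 1 lower. At an unadjusted p under 0.05, 6 were higher and 7 lower (edgeR). Of all genes tested 18.2% reached that limit in either direction, which is the share to set beside the counts at that limit below. Pdgfa, a mitogen of oligodendrocyte precursors, had 22.1, 7.98, 11.5 and 11.1 CPM in the CC and 5.26, 4.25, 6.88 and 6.00 in the Cx (log2 fold change 1.23, standard error 0.28, adjusted p = 0.0080, edgeR; 1.44 and 0.014 without CC libraries 3 and 4). Cell division genes had negative values in 29 of 30 members and a median of -0.45, and none was called (edgeR; 0 higher and 3 lower at an unadjusted p under 0.05; limma-voom called 2 and DESeq2 0). Top2a, of DNA replication, had 94.9, 138, 207 and 115 CPM in the CC and 233, 280.1, 264 and 206 in the Cx (log2 fold change -0.83, standard error 0.45, adjusted p = 0.34, edgeR), and CC library 3 reached the level of the Cx. No gene was called among 30 of the interferon response (edgeR; 3 higher and 4 lower at an unadjusted p under 0.05; limma-voom called 0 and DESeq2 0), 20 of antigen presentation (edgeR; 2 higher and 4 lower at an unadjusted p under 0.05; limma-voom called 0 and DESeq2 0) and 36 of apoptosis (edgeR; 4 higher and 7 lower at an unadjusted p under 0.05; limma-voom called 0 and DESeq2 0). Without CC libraries 3 and 4 H2-DMa, an antigen presentation gene named after its values were seen, was called lower. The medians of these lists were 0.27, -0.000265 and -0.09, and that of the interferon list was -0.38 without CC libraries 3 and 4. Bst2 of the first list (0.10), B2m of the second (-0.02) and Casp8 of the third (-0.25) did not pass.

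**Figure D3:**
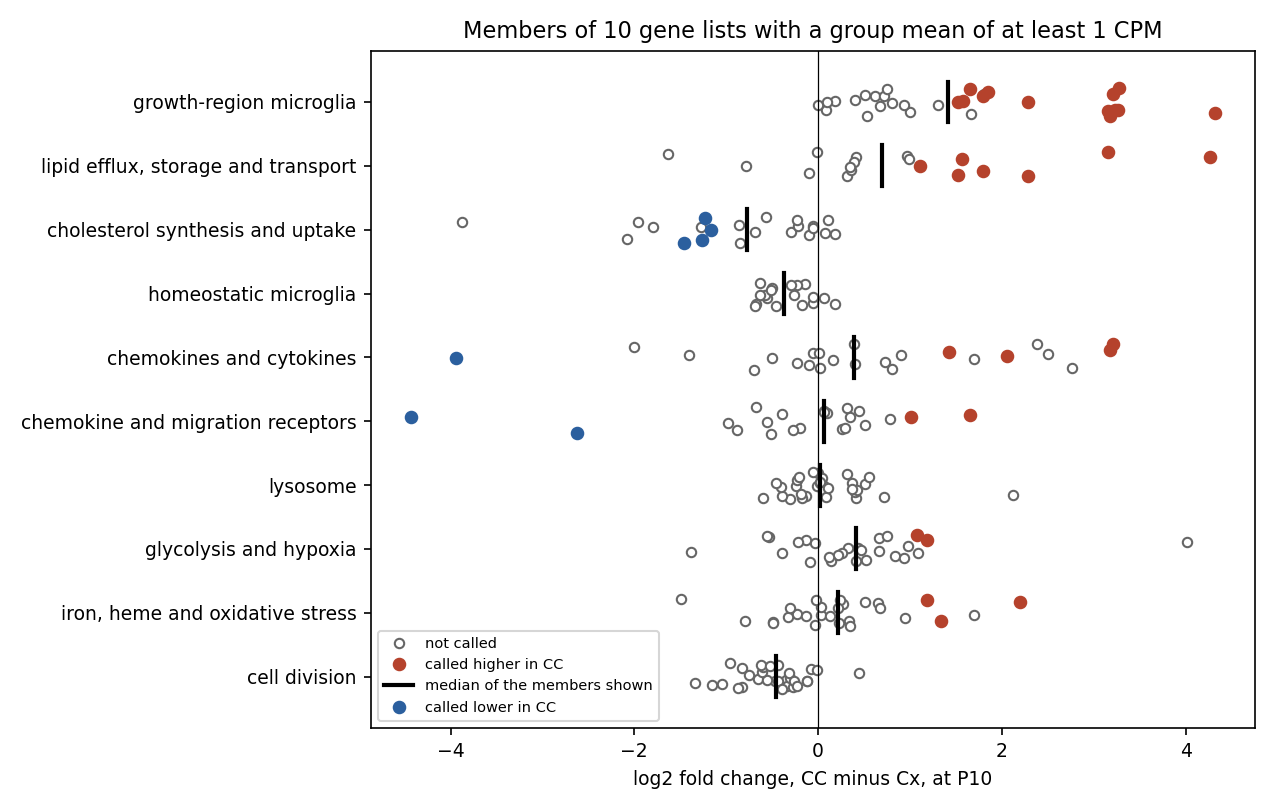
Log2 fold change between CC and Cx at P10 of the members of 10 lists with a mean of at least 1 CPM in either region (open, not called; red, called higher; blue, called lower; bar, median of the members shown). Members for growing white matter and for lipid efflux lie to the right, and those for cholesterol synthesis, homeostasis and cell division lie to the left.

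The other genes with the largest increases were of varied function. Pde2a, a phosphodiesterase of cyclic nucleotides, had 22.5, 46.9, 44.5 and 38.0 CPM in the CC and 0.836, 1.68, 1.79 and 3.70 in the Cx (log2 fold change 4.24, standard error 0.62, adjusted p = 5.1e-05, edgeR). It shares exon bases with Arap1 of the same strand (129 ± 43.1 and 109 ± 11.2 CPM, SD, n = 4). Fam26f had 22.5, 23.9, 25.0 and 20.1 CPM in the CC and 5.15, 5.73, 4.49 and 5.32 in the Cx (log2 fold change 2.14, standard error 0.23, adjusted p = 4.4e-07, edgeR). Tmem205, for a transmembrane protein, had 8.52 to 13.5 and 2.40 to 2.98 CPM (log2 fold change 2.09, standard error 0.28, adjusted p = 1.8e-05, edgeR). For all 3 the regions were separated, as the rule that named them required, and the calls held without CC libraries 3 and 4.

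Genes with large decreases besides Ccr1 included an interleukin receptor and an enzyme of lipid mediators. Il7r, the receptor chain for interleukin 7, had 6.61, 5.40, 11.6 and 5.86 CPM in the CC and 36.8, 43.5, 27.3 and 29.5 in the Cx (log2 fold change -2.22, standard error 0.35, adjusted p = 0.00016, edgeR). Alox5, the 5-lipoxygenase that starts leukotriene synthesis, had 17.6, 13.5, 16.8 and 11.8 and 42.8, 44.9, 41.5 and 53.7 (log2 fold change -1.61, standard error 0.20, adjusted p = 6.4e-06, edgeR). Mrc2, an endocytic receptor for collagen, had 34.6, 48.8, 36.0 and 36.2 and 147, 109, 132 and 114 (log2 fold change -1.69, standard error 0.25, adjusted p = 5.1e-05, edgeR). All 4 CC libraries were below all Cx libraries for these genes, as the rule that named them required. Endod1, for an endonuclease domain protein, had 14.0, 59.7, 54.3 and 27.6 CPM in the CC and 105, 125, 136 and 138 in the Cx (log2 fold change -1.70, standard error 0.25, adjusted p = 7.5e-05, edgeR), and the CC libraries spread widely. Lrrc3, for a leucine-rich repeat protein, had 28.6, 45.1, 28.1 and 32.6 and 99.0, 80.9, 76.5 and 118 (log2 fold change -1.48, standard error 0.16, adjusted p = 5.9e-07, edgeR). Arsb, the lysosomal arylsulfatase B, was chosen after its values were seen and fell from 1084, 1024, 1083 and 1114 CPM in the Cx to 386, 481, 414 and 495 in the CC (log2 fold change -1.28, standard error 0.12, adjusted p = 2.2e-08, edgeR). These 6 calls held without CC libraries 3 and 4, and that of Endod1 was lost in the fit of only the groups compared (adjusted p = 0.060, edgeR). The other 5 of the 12 named genes with the largest decrease, apart from Cyp51, had adjusted p above 0.01 without them, namely Trp53i11 (-2.24, then -2.90 with adjusted p = 0.016, edgeR), Klhl23 (-1.92, then -1.96, 0.069), Csrnp2 (-1.80, then -1.74, 0.088), Tmem52 (-1.66, then -1.62, 0.025) and Zfp518a (-1.55, then -1.46, 0.054).

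**Figure D4:**
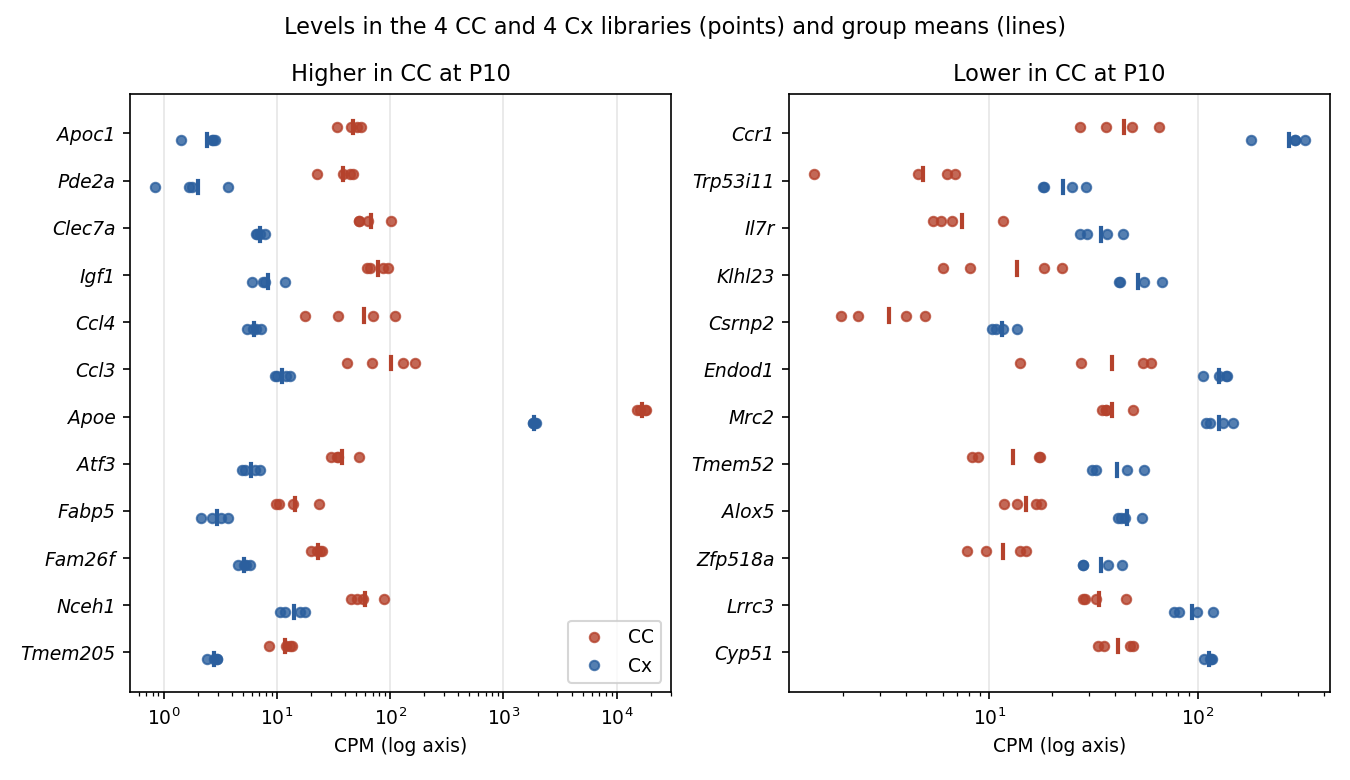
CPM in each library (points) and group means (lines) for the 12 named genes with the largest increase and the 12 with the largest decrease in the CC (log axis, CC red, Cx blue). The rule that named these 24 required that the 4 CC libraries lie on one side of the 4 Cx libraries. The widest spread within the CC among them is that of Ccl4, Trp53i11 and Endod1.

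Part of the calls rested on genes near the detection limit. In 16 of the 61 genes that fell the CC was at the limit, and in 3 of the 60 that rose the Cx was. Against a floor of 3 counts per library, Mlf1 was at least 23.8-fold lower in the CC (a mean of 2.12 CPM in the Cx), Pi4k2b at least 29.8-fold (2.66) and Slain1 at least 20.0-fold (1.78). Colec12, a scavenger receptor of border macrophages, was at least 70.9-fold higher in the CC (5.18 CPM), but had no read in CC library 1. These 4 genes were chosen after their values were seen, and none of them was called without CC libraries 3 and 4, where their adjusted p were 0.081, 0.11, 0.059 and 0.044 (edgeR).

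Some of the genes called lie close to each other, and 5 pairs were within 50 kb on GRCm38, each with both members higher in the CC. A tested gene that was not called lies between the members of 2 pairs, E230016K23Rik between Ccl9 and Ccl6 and Matn4 between Slpi and Sdc4. Apoc1 and Apoe lie 3449 bases apart on chromosome 7 and Mt2 and Mt1 5514 bases apart on chromosome 8. Ccl9 and Ccl6 lie 9246 bases apart and Ccl3 and Ccl4 13229 bases apart on chromosome 11. Slpi, for a secreted protease inhibitor (3.76 ± 2.07 CPM in the CC, 0.0768 ± 0.0755 in the Cx, SD, n = 4), and Sdc4, a heparan sulfate proteoglycan (68.2 ± 8.56 and 19.7 ± 4.06), lie 35152 bases apart on chromosome 2.

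The genes called at P10 were compared with the same contrast at P7 and at P42. The ages share no library. At P7, 138 genes (0.66%) were called, and 46 of the 121 P10 calls were among them (38.0% of the P10 list and 33.3% of the P7 list), 37 that rose and 9 that fell. All 60 genes that rose at P10 had a positive value at P7, as against 52 of 61 that fell with a negative one (112 of 121 in all, 92.6%, against 58.1% of all genes). The median log2 fold change of the 60 was 1.68 at P10 and 1.78 at P7, and that of the 61 was -1.55 at P10 and -0.74 at P7. The genes were chosen by their size at P10, which favours large values at that age, so that the medians do not measure a change with age. At P42, 51 genes (0.244%) were called and 13 of the 121 were among them (10.7% of the P10 list and 25.5% of the P42 list). The direction was the same for 85 (70.2%, against 52.9% of all genes), and the medians were 0.54 and -0.18. The genes called at all 3 ages numbered 11, all higher in the CC, among them Apoc1, Clec7a, Igf1, Apoe, Fabp5, Tmem205, Lyz2, Crip1, Lpl and Anxa5. The log2 fold change of Apoe was 2.83 at P7, 3.16 at P10 and 2.02 at P42, and that of Apoc1 was 3.84 at P7 and 4.27 at P10. At P42 Apoc1 had 1.17 CPM in the CC and 0.0154 in the Cx, both low.

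**Figure D5:**
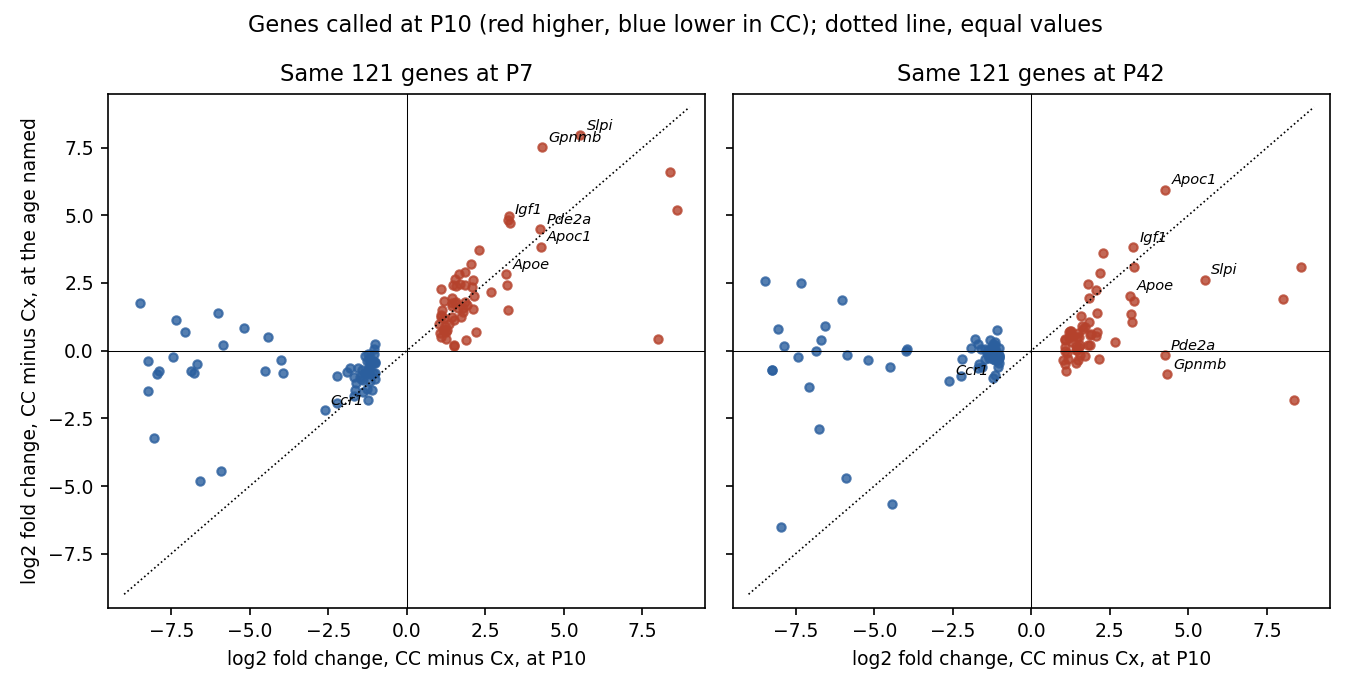
Log2 fold change between CC and Cx of the 121 genes called at P10 (x axis) and of the same genes at P7 (left) and P42 (right), red for genes higher and blue for genes lower in the CC at P10, with the dotted line at equal values. At P7 all 60 red points lie above 0, and at P42 most points of either colour lie nearer to 0 than the line. The genes were chosen by their size at P10, which favours large values on the x axis.

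The difference between the contrasts was tested itself. Between P10 and P7 it was called for 11 genes (0.0526%), each with a lower value at P10, and none of the 11 was a P10 call. Without CC libraries 3 and 4 of P10 the count was 10. It was far higher with DESeq2, higher with limma-voom and lower in the fit of only the groups compared, as given in the last section. Spp1 had 8529 ± 2597 CPM in the CC and 88.6 ± 8.99 in the Cx at P7 (SD, n = 3), and the change of the log2 fold change to P10 was large (difference -5.28, standard error 0.98, adjusted p = 0.0087, edgeR). Itgax had 118 ± 22.9 and 1.62 ± 0.775 CPM at P7 (SD, n = 3; difference -4.36, adjusted p = 0.00060, edgeR), and Lag3, an inhibitory receptor, had 64.2 ± 5.73 and 11.4 ± 1.17 (difference -1.74, 0.00060). The other 8 were Aplp2, Soat1, Chn2, Hacd4, Pld3, Pmp22, Plek and Syngr1, with differences of -1.32 to -1.09. For Clec7a, Igf1 and Gpnmb, which had log2 differences of -1.71, -1.60 and -3.21, the test did not pass (adjusted p = 0.035, 0.47 and 0.54, edgeR).

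Between P10 and P42 the difference was called for 46 genes (0.22%), 23 with a higher and 23 with a lower value at P10, and 20 of them were P10 calls. Without CC libraries 3 and 4 of P10 the count was 39. It was far higher with DESeq2 and lower in the fit of only the groups compared, as given in the last section. The exporters Abca1 and Abcg1 and the chemokines Ccl6 and Ccl9 had larger differences from the Cx at P10 than at P42. The difference was 1.87 for Abca1 (169 ± 27.1 CPM in the CC and 287 ± 29.3 in the Cx at P42, SD, n = 4; adjusted p = 5.7e-05, edgeR), 1.72 for Abcg1 (6.4e-08), 1.53 for Ccl6 (6.4e-08) and 1.27 for Ccl9 (0.00012). The chemokines Ccl3 (1.83, 0.11) and Ccl4 (2.16, 0.038) did not pass this test (edgeR). Hmgcs1 differed in the other direction (-1.48, 0.0018), with 52.1 ± 8.85 and 41.8 ± 3.69 CPM at P42. Pde2a (4.42), Fam26f (2.44), Atf3 (2.36), S1pr1 (1.36) and Bnip3 (1.57) also had larger values at P10, and Endod1 (-1.94), Alox5 (-1.69) and Lrrc3 (-1.16) smaller ones. The largest fitted differences among genes of at least 10 CPM were those of Cdc25b, a cell cycle phosphatase (7.59, adjusted p = 0.0012, edgeR; 0.00840 ± 0.0168 CPM in the CC and 1.96 ± 1.72 in the Cx at P42, SD, n = 4, so that its size depends on the prior count), and Hpse, the heparanase (6.71, 0.0094), neither of them a P10 call. Hpse had 29.6, 21.0, 61.1 and 10.7 CPM in the CC and 1.67, 3.02, 1.77 and 3.89 in the Cx at P10. Apoe (difference 1.13, adjusted p = 0.042, edgeR), Lpl (-0.65, 0.21) and Igf1 (-0.59, 0.80) did not pass this test.

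Apoe had a log2 fold change of 3.12 in females and 3.19 in males, Ccr1 of -2.95 and -2.31, and Spp1, not a call, of -0.35 and 2.03. The difference between sexes was called for 4 genes (0.0191%; 1348 at an unadjusted p under 0.05, edgeR). A fit of the 8 libraries alone called 0 (1223 at an unadjusted p under 0.05, edgeR). Leaving out 1 of the 8 leaves 1 library for a sex in a region, so such fits cannot show how stable the 4 calls are. The 4 genes were Zfp324 (19.8, 19.9, 0.655 and 0.722 CPM in CC libraries 1 to 4), Pgap1 (7.06, 10.3, 0.0298 and 0), Ccl25 (8.12, 8.26, 0 and 0) and Arl6 (4.68, 6.42, 0 and 0.0577), of which the last was outside the rule for named genes and was named after its values were seen. All 4 were at or near 0 in CC libraries 3 and 4, and in the Cx they had 11.0 to 24.1, 5.68 to 13.1, 4.82 to 9.28 and 3.10 to 5.23 CPM over both sexes. For Pgap1 both Cx males (11.39 and 13.13 CPM) lay above both Cx females (11.33 and 5.68), by a narrow margin. CC libraries 3 and 4 also had 3 counts or fewer for 123 and 92 of the genes whose Cx mean reached 5 CPM, and the part of that in these 4 genes was not tested. The chemokine gene Ccl25 shares exon bases with Elavl1 of the opposite strand.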

How the data were processed

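The authors made cDNA of sorted microglia with a SMARTer low-input kit and, per the submitters' processing notes, aligned reads to the mouse genome GRCm38 with STAR 2.5.2b and counted them on genes with featureCounts 1.6.2, discarding reads with more than 1 mapping place or gene. The authors deposited raw counts per gene. The tagmented cDNA does not mark strand. All 33 libraries entered 1 edgeR 4.0.16 quasi-likelihood fit (R 4.3.3) with TMM factors, robust dispersions and 1 coefficient for each of 9 groups of region and age. Of 48587 genes, 17212 had no read, and the third with the lowest summed counts (10458 genes, 26 reads at most over all libraries) was removed, which left 20917. P-values were adjusted by the Benjamini-Hochberg method over these. The difference of the contrast between ages or sexes was tested as a contrast of the same kind. Standard errors were computed from the log2 fold change and the F statistic. The CPM values were scaled by TMM, and the 92 spike-in rows were left out of library sizes. In counts simulated for the P10 contrast on 20917 genes, 26 of 100 genes changed 2-fold and 74 of 100 changed 4-fold were called, with 0 false calls. Each gene had the same simulated spread in all groups, so that neither the calls nor the false calls cover the wider spread of the CC libraries.

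Genes were named by rule, as the 12 with the largest increase and the 12 with the largest decrease among calls with at least 10 CPM in the higher group and no overlap of libraries, the genes that the study's text names, up to 4 called members and the highest member of each list, and the genes with the largest differences between ages or sexes. A few further list members and genes are named where the text says so or for the step of a pathway that they encode. The members and lists were chosen with earlier results of these data known. Alternatives were limma-voom (limma 3.58.1), DESeq2 1.42.0, RLE factors, other filters, only the groups compared, a covariate for sex, a block for the replicate number and each library left out. Leaving out CC libraries 3 and 4 together and thinning to equal totals were added after the data were seen. No 2 libraries of a group agreed within sampling noise (the lowest chi-square per degree of freedom was 22.4). Promoter windows came from RefSeq. A few genes are not reported here.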

Additional observations from a re-analysis of the deposited data

Results flagged for a closer look

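Single libraries that lay far from the other 3 of their region by Dixon's criterion were found in 9 of 182 groups of values, and chance gives about 1 in 20. They were Apoc1 in Cx library 3 (1.43 CPM, low), Mrc2 in CC library 2 (48.8 CPM, high), F13a1 in CC library 2 (5.43 CPM, high), Mef2c in CC library 2 (854 CPM, high), Sparc in Cx library 1 (11890 CPM, low), Bnip3 in CC library 3 (25.1 CPM, high) and Casp8 in Cx library 3 (357 CPM). The summed markers of red cells were high in Cx library 1 (12.2 CPM), and the percentage of reads on mitochondrial genes was 1.02 in Cx library 2.

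The regional difference differed between P10 and P7 for 11 genes, among them Spp1 (log2 difference of P10 minus P7 -5.28), Itgax (-4.36) and Lag3 (-1.74). Between P10 and P42 it differed for 46 genes by the same edgeR test. The differences of P10 minus P42 were 4.42 for Pde2a, 2.36 for Atf3, 2.44 for Fam26f, 1.87 for Abca1, 1.53 for Ccl6, 1.36 for S1pr1, 1.57 for Bnip3 and 1.46 for Lag3, and -1.94 for Endod1, -1.69 for Alox5, -1.16 for Lrrc3 and -1.48 for Hmgcs1. The fitted differences of Cdc25b (7.59) and Hpse (6.71) rest on levels near 0 in the CC at P42 and depend on the prior count.

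Between sexes the regional difference at P10 differed for 4 genes. The log2 differences of male minus female were -4.95 for Zfp324, -9.42 for Pgap1 and -11.37 for Ccl25, each with CC libraries 3 and 4 near 0, so that the fitted sizes also depend on the prior count.

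The spike-in rows held at most 23 reads in 1 of the 8 libraries, and the sources used here do not say that spike-ins were added to them.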

How the results depend on the processing

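No named gene that was called changed its direction in any alternative. Among named genes that were not called, the sign changed in at least 1 alternative for Spp1 (-0.36 to 1.67), F13a1 (-6.62 to 1.17), Cd36 (-1.32 to 0.68), Zfp324 (-2.22 to 0.14), Ccl25 (-4.40 to 0.13), Gsn (-0.11 to 0.75), Grk6 (-0.63 to 0.05), Ebp (-0.19 to 0.01) and B2m (-0.03 to 0.09). Over the named genes and alternatives, 1147 values stayed on the same side of the limits, 181 fell short of them, 11 newly passed, and 11 moved. Counts were within 1.5 times the main ones with RLE factors (118 called), filterByExpr (122), no filter (101), sex as a covariate (116) and thinned libraries (113). limma-voom called 257 genes at P10 (195 lower), 29 for the difference from P7 and 7 for sex, and 226 and 179 of its calls had the same direction at P7 and P42. DESeq2 called 303 (125 higher, 178 lower), 101 and 297 for the differences from P7 and P42, and 245 and 176 had the same direction. A fit of only the groups compared called 62 (34 higher, 28 lower), 6 and 21, with 62 and 52 in the same direction, and a fit of only the 8 libraries called 0 for sex (edgeR, 1223 at an unadjusted p under 0.05). Leaving out both CC libraries 3 and 4 gave 69 (38 higher, 31 lower), with 67 and 49 in the same direction. The causes were not tested.

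Leaving out 1 library at a time gave 76 to 144 calls at P10 (76 without Cx library 3, 79 without Cx library 1), 41 to 71 higher and 32 to 73 lower (32, 35 and 38 without Cx libraries 1, 3 and 4 and 37 without CC library 3), and 71 to 133 in the same direction at P7 (71 without Cx library 3) and 58 to 103 at P42. It gave 6 to 13 for the difference from P7 (6 without CC library 3 of P7, 7 without Cx library 1 of P7), 31 to 63 for P42 and 2 to 65 for sex (45 and 65 without CC libraries 3 and 4, 2 without Cx library 2). The distance ratio ranged from 1.06 to 1.50, and its p was above 0.05 when any 1 Cx library was left out. With the replicate block 89 genes were called (45 higher, 44 lower), 84 of them among the 121, and 11 and 33 for the differences from P7 and P42. Libraries of the same number did not deviate together (correlations of 0.00184 to 0.0465, against -0.0475 to 0.0586 for other numbers, with 2 of 4 highest for the own number), so that the numbers were not taken as a pairing. In the simulation 74 of 100 changes of 4-fold were called. It gave each gene the same spread in all groups, and the wider spread of the CC libraries was not simulated. Its counts therefore do not measure what was detectable in this contrast. Changes of 2-fold moreover lie at the fold limit itself.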
